A study of Mus musculus with 4 samples.

Results

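The TNF superfamily ligands and receptors were followed in scRNA-seq data of the postnatal mouse thyroid. A gene counted as a member when its symbol was Tnfsf or Tnfrsf with a number, or one of the older names Tnf, Lta, Ltb, Ltbr, Cd40, Cd40lg, Cd27, Cd70, Fas, Fasl, Ngfr, Eda, Eda2r and Edar. This gave 45 of the 32285 genes in the count tables, 18 of them ligands and 27 receptors. The study collected thyroids of C57BL/6 mice on postnatal days 5, 10, 20 and 30, with the tissue of 10 mice pooled for each age, and asked how follicles form and what other cells contribute. Each age was 1 library of a droplet assay that tags every transcript with the barcode of its cell and with a unique molecular identifier (UMI), so there was no replicate of an age and the difference between a pair of ages could not be tested. The labels name no transgene, deletion or treatment for these 4 libraries.

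Ligands of this family are mostly trimeric membrane proteins that can be cut off the cell surface, and their receptors recruit TRAF adaptors or, in those with a death domain, TRADD and FADD. Signalling through them leads to NF-κB activation or to caspase-driven cell death. Tnf and the lymphotoxins are inducible products of myeloid and lymphoid cells, while Tnfrsf1a is found on most cell types. The thyroid follicular cell (TFC) takes up iodide and makes thyroglobulin in a wall of cells around the follicle lumen.

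The sequences upstream of Tnf, Lta, Ltb and Tnfrsf9 are shown because the results turn on these genes: the first 3 are neighbouring ligand genes that were highest in different cells, and Tnfrsf9 was the most abundant member whose mean level was highest in TFC-like cells. Each window runs from 250 bases before to 50 bases after the RefSeq start of the gene on GRCm38.p6, read along the strand of the gene. Capitals mark matches to GGGNNNNNCC or its reverse complement GGNNNNNCCC, a loose spelling of the site that NF-κB binds, and overlapping matches run together. Tnf (chr17:35201958-35202257, minus strand) held 2 matches, Lta (chr17:35205302-35205601, minus strand) held 2 and Ltb (chr17:35194257-35194556, plus strand) held 4. RefSeq gives Tnfrsf9 2 starts, of which the upstream window (chr4:150919905-150920204, plus strand) held 0 matches and the downstream window (chr4:150927749-150928048, plus strand) held 2.
Tnf: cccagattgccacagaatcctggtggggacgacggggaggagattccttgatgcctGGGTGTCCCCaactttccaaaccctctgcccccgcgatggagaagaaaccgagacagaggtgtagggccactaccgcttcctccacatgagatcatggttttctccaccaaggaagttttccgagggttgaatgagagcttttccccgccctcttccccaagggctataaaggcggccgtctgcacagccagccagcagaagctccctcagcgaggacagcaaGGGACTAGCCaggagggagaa
Lta: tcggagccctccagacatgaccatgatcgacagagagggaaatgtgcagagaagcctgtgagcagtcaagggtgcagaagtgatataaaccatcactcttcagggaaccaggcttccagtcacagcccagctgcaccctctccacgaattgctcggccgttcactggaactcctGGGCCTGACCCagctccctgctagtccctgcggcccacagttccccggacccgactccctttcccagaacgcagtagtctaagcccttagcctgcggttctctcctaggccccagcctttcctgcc
Ltb: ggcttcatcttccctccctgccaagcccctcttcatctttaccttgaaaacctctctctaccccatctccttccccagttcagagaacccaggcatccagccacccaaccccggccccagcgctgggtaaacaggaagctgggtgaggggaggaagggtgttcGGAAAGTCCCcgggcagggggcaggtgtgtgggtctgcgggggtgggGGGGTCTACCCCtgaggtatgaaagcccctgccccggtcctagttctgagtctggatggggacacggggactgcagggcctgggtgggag
Tnfrsf9, upstream start: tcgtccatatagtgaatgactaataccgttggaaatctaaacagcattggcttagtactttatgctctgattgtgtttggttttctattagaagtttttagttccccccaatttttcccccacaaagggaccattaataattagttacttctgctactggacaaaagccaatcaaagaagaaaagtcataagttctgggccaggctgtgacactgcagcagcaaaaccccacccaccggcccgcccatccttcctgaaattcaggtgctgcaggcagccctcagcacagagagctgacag
Tnfrsf9, downstream start: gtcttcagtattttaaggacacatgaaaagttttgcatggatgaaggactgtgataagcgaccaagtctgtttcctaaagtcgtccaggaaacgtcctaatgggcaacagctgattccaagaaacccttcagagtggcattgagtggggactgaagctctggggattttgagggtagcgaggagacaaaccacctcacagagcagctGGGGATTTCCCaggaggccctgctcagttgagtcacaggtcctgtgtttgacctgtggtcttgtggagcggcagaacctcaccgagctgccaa
A RefSeq window was matched for 35 of the 45 members. The motif occurred in 24 of these 35 (68.6%), against 50.4% of all 27025 windows of the same length of 300 bases. The letters TATAAA occurred in 7 of the 35, against 14.2% of all windows. A match is a run of letters and was not tested as a binding site.

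The 4 count matrices held 54921806 to 89039113 UMIs. After filters, 23114 cells remained, 11210, 3929, 5076 and 2899 in the libraries labelled day 5, 10, 20 and 30, and this order is kept below for every set of 4 values. Levels are UMIs per 1000000 UMIs of a cell class (CPM), intervals are 95% intervals, and both intervals and the floors given for a count of 0 cover counting error only. Cells were clustered without the 45 members and named from marker genes, so that 22915 cells fell into 16 classes and 199 stayed unnamed. Stromal-like cells carried smooth muscle and pericyte markers, ILC2-like cells those of innate lymphoid cells, and LEC-like (lymphatic endothelial) cells were too few to be used. Free RNA, measured in droplets of 10 to 100 UMIs, is given where it bears on a level. The libraries labelled day 10, 20 and 30 shared 97.4% to 98.8% of their cell barcodes with one another's matrices, where those barcodes held a median of 8 to 12 UMIs. The library labelled day 5 stood apart and shared 33.6% to 49.9% of its cell barcodes with their matrices, at a median of 1 UMI. The age labels went against part of the data. H19, an imprinted growth transcript that falls after birth, stood at 64.1, 523, 70.5 and 1974 CPM in fibroblast-like cells, and its neighbour Igf2 at 19.4, 179.6, 24.7 and 716 CPM. The library labelled day 30 was thus the highest for both, so each library is called by its label and not by an age. If the labels day 5 and day 30 were exchanged, every ratio between these libraries given below would change its sign, and this was not tested. The order of the libraries by cell number also differed from that in the methods of the study, in which the oldest age had the most cells. TFC-like cells numbered 1554, 369, 154 and 281 at a median of 6628, 1777, 1802.5 and 1561 UMIs per cell. The filters included an upper limit on UMIs per cell, without which this class was larger in every library.

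Of the 45 members, 42 reached 10 UMIs in at least 1 cell class, all but the ligands Tnfsf4, Cd70 and Tnfsf15, which had 12, 12 and 6 UMIs over all cells. The median member had 483 UMIs, and Ltb had the most with 15277. Of the 45, 15 passed 10 CPM in every library in none of the 15 classes used, 9 did so in 1 class, 10 in 2 to 5 classes and 11 in more. Tnfrsf1a was the widest and passed this level in 13 of 15 classes. An immune class had the highest mean level for 10 of the 15 ligands and for 16 of the 27 receptors that reached 10 UMIs in a class. Together these were 61.9% of the 42, where 9 of the 15 classes were immune and 41.1% of all 16951 genes with 10 UMIs in a class had an immune class highest.

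**Figure D1:**
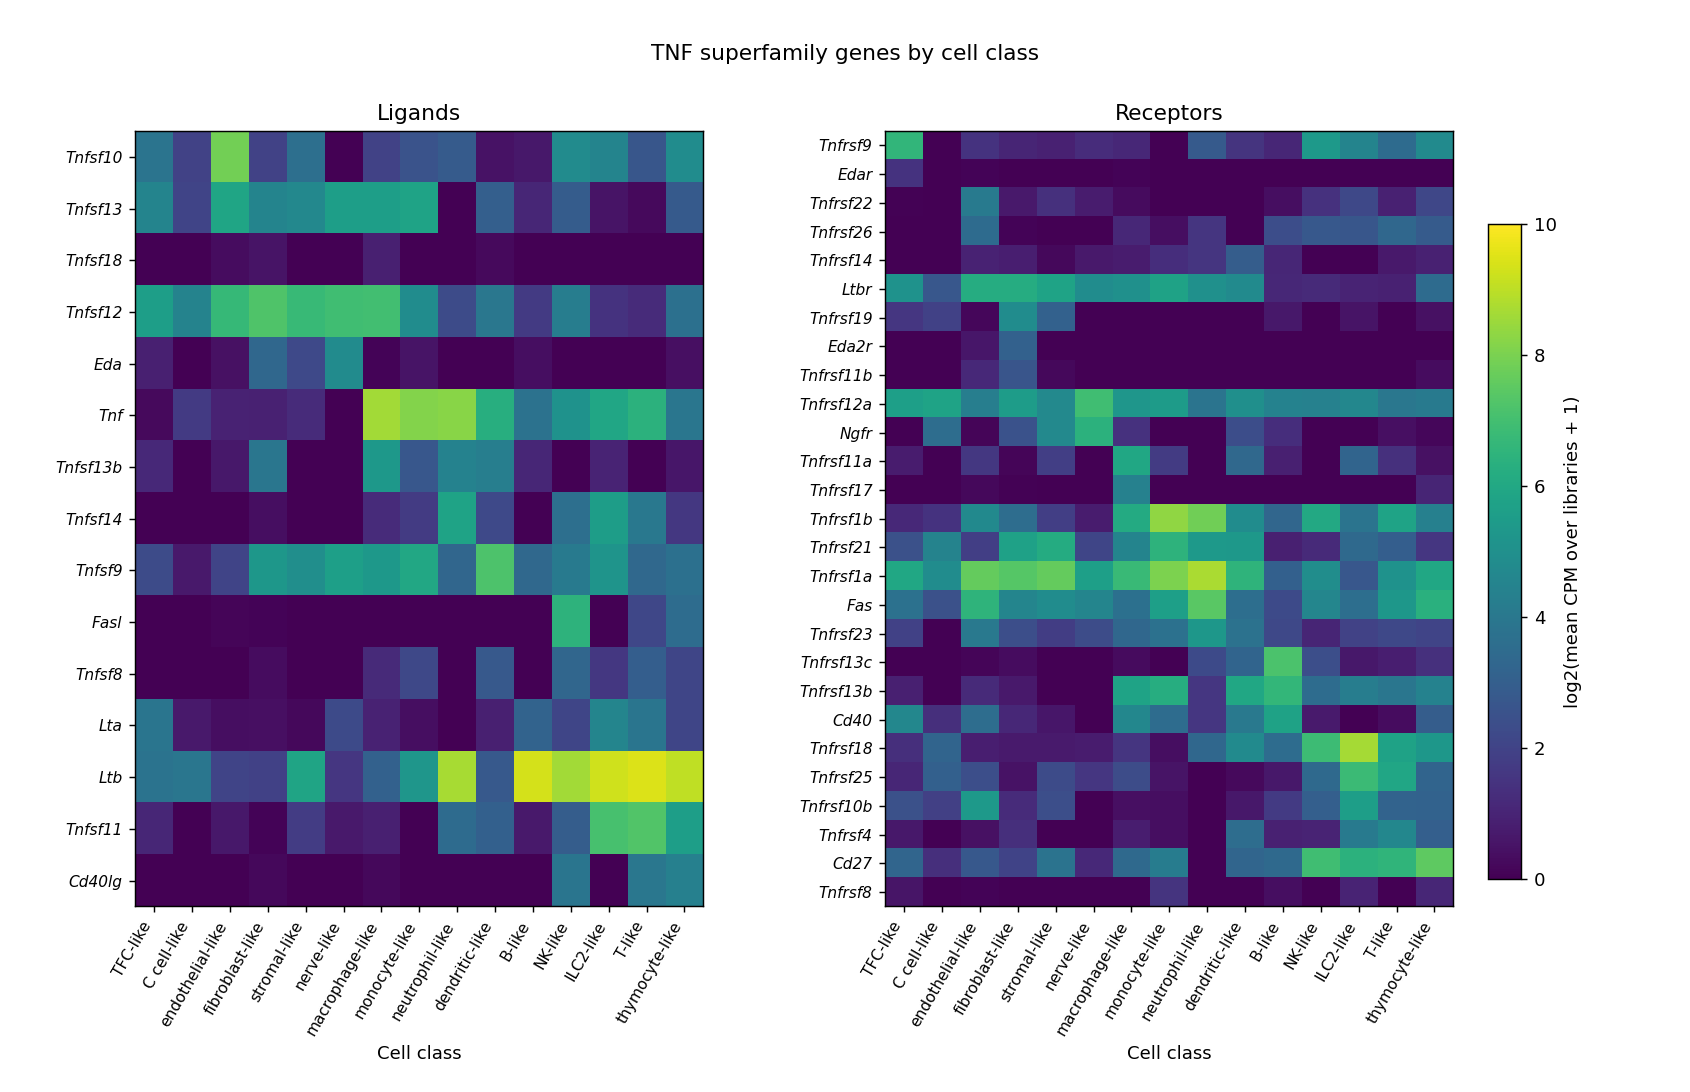
Mean level of each member over the 4 libraries (colour, log2 of CPM + 1) in 15 cell classes (columns), with the 15 ligands at left and the 27 receptors at right that had 10 UMIs in some class. Tnf was bright in the macrophage-like, monocyte-like and neutrophil-like columns, Ltb in the lymphoid columns and neutrophil-like cells, Tnfsf10 in endothelial-like cells and Tnfrsf9 in TFC-like cells.

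Tnf, the founding cytokine of the family, was a myeloid transcript in every library. In macrophage-like cells it stood at 578, 361, 444 and 183 CPM (1868, 1538, 480 and 252 UMIs). In neutrophil-like cells it stood at 422, 239, 280.3 and 249 CPM, and in monocyte-like cells at 278, 283, 156 and 408 CPM. The 3 myeloid classes overlapped one another in level, and the library labelled day 30 was the lowest for macrophage-like cells but the highest for monocyte-like cells. T-like cells were lower, at 98.6, 78, 31.4 and 133 CPM, and dendritic-like cells ranged from 19.7 to 159.6 CPM. TFC-like cells held 8 Tnf UMIs in all, at 0.825, 0, 0 and 0 CPM, with interval bounds of 0.356 to 1.63 CPM in the library labelled day 5 and floors of 2.3, 5.78 and 3.51 CPM in the other 3. Free RNA held 16.2, 21, 12.7 and 12.4 CPM of Tnf, above the level in TFC-like cells in every library.

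Macrophage-like, monocyte-like, neutrophil-like and dendritic-like cells together held 5092 of 5749 Tnf UMIs, or 88.6% (exact binomial interval 87.7% to 89.4%), while they were 13.3% of cells. By library the share was 91.0%, 92.7%, 75.6% and 80.5%. The lowest share came from the library labelled day 20, where 246 of 5076 cells were myeloid. Within macrophage-like cells, Tnf followed the cluster. The cluster led by the chemokine genes Ccl4, Cxcl2 and Ccl3 had 989, 671, 783 and 381 CPM, the cluster led by Pf4, C1qa and C1qc had 194, 258, 236 and 108 CPM, and the cluster led by the complement genes C1qa, C1qb and C1qc had 138, 109, 61.7 and 62.9 CPM. The Ccl4 cluster lay above both others in each of the 4 libraries. It held 483 of 975, 218 of 724, 82 of 197 and 52 of 206 macrophage-like cells, so its share of the class was highest at labelled day 5 and lowest at labelled day 30. Among T-like cells, the cluster led by the gamma-delta receptor gene Trdc had 122, 119, 89.6 and 333 CPM and the cluster led by Trbc2 had 20.8, 49, 21 and 32.6 CPM.

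**Figure D2:**
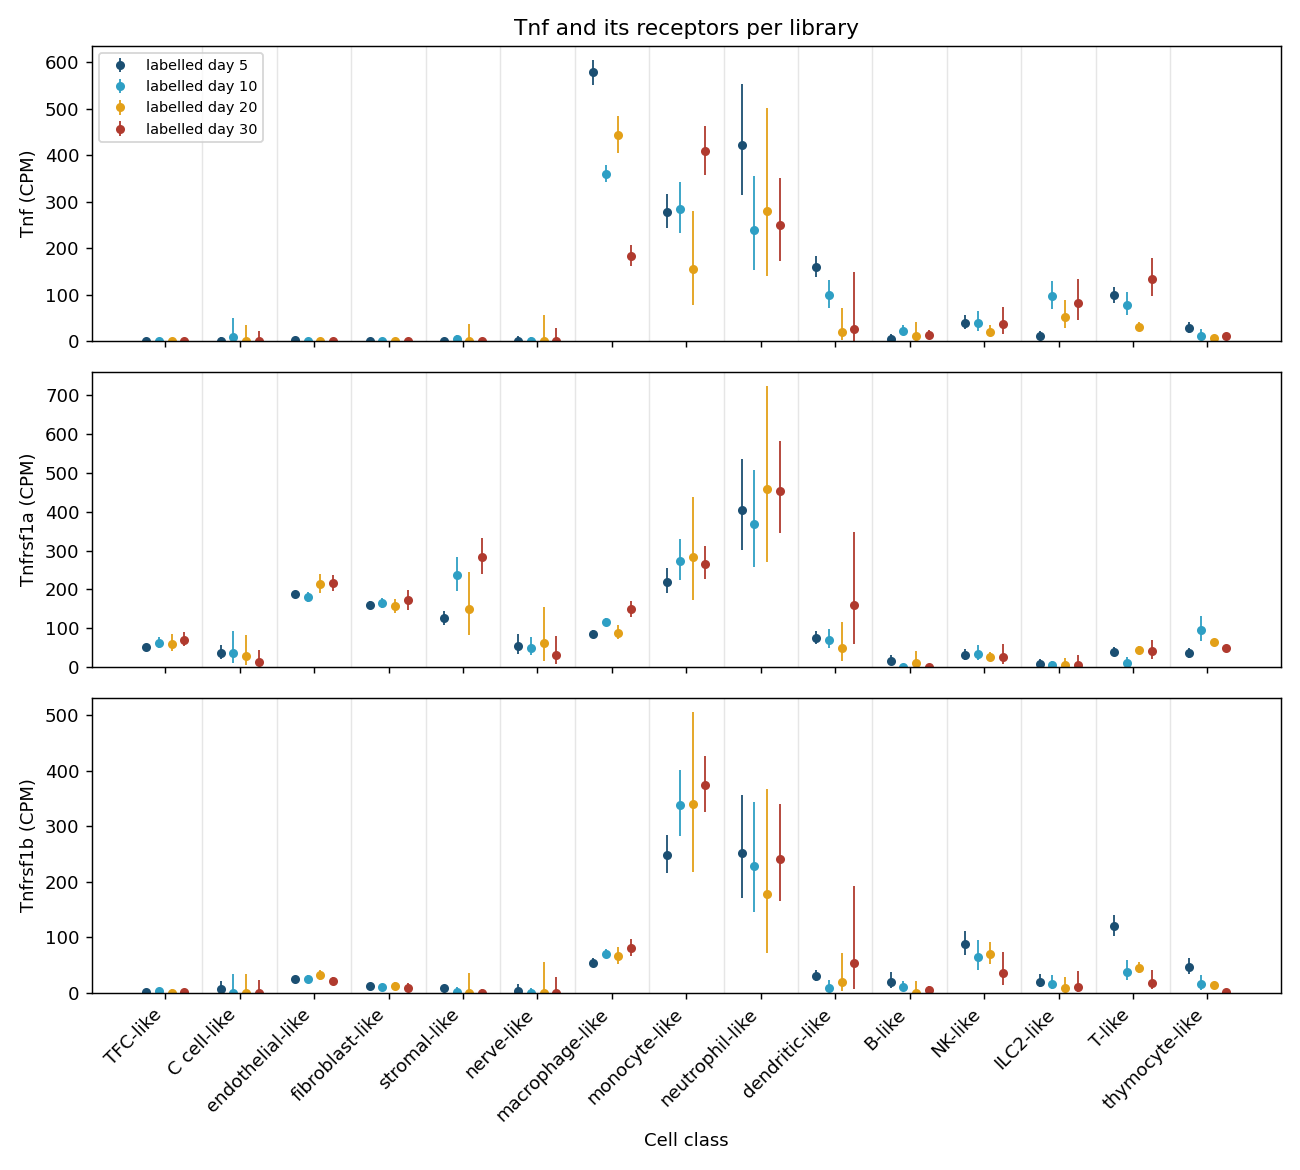
Tnf (top), Tnfrsf1a (middle) and Tnfrsf1b (bottom) in 15 cell classes, in CPM, with 1 point for each library and exact 95% Poisson intervals as bars. Tnf points lay high in myeloid classes and near 0 in TFC-like cells, Tnfrsf1a points lay above 0 in nearly every class, and Tnfrsf1b points were highest in monocyte-like and neutrophil-like cells.

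Lta and Ltb, which encode the subunits of the lymphotoxins and flank Tnf on chromosome 17, were distributed differently. Ltb stood at 728, 799, 482 and 821 CPM in T-like cells, 530.3, 734, 689 and 637 CPM in B-like cells and 544, 706, 509 and 689 CPM in ILC2-like cells. Neutrophil-like cells also held 479, 398, 433 and 332 CPM. The ranges of T-like, B-like and ILC2-like cells overlapped and the neutrophil-like range lay just below them, whereas macrophage-like cells had at most 15.7 CPM in any library. Thymocyte-like cells had 289, 301, 609 and 923 CPM. Lta was low everywhere, with 19.4, 21.9, 27.9 and 21.7 CPM in ILC2-like cells and 15.2, 11.4, 4.33 and 24.8 CPM in T-like cells. TFC-like cells had 24.9, 9.96, 13.5 and 7.02 CPM of Lta, from 241, 13, 7 and 6 UMIs, against 7.24, 2.67, 4.4 and 4.5 CPM in free RNA. Lta was thus above free RNA in TFC-like cells of each library, but at labelled day 30 the interval, 2.57 to 15.3 CPM, held the free RNA level.

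Tnfsf11, the RANK ligand, was a lymphoid transcript with 189, 169, 166 and 99.1 CPM in T-like cells, 134, 194, 111 and 109 CPM in ILC2-like cells and 31, 27.8, 83.4 and 46.5 CPM in thymocyte-like cells. The Trdc cluster had 242, 342, 197 and 204 CPM and lay above the Trbc2 cluster, with 13.9, 45.8, 160.0 and 46.6 CPM, in each library. Its receptor Tnfrsf11a (RANK) was highest in macrophage-like cells, at 38.4, 77.6, 57.3 and 72.5 CPM, and at most 16.5 CPM in any library of the other classes with 10 or more UMIs. The soluble decoy Tnfrsf11b (osteoprotegerin) had only 57 UMIs, 40 of them in fibroblast-like cells at 1.54, 3, 0.493 and 15.7 CPM.

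Tnfsf10 (TRAIL), a ligand that can trigger cell death, was an endothelial-like transcript with 202, 256, 279 and 203 CPM. Its levels in the 4 libraries overlapped with no other class, the next mean being that of thymocyte-like cells at 28.3 CPM. All 5 endothelial-like clusters expressed it, and the cluster led by Tm4sf1, Cldn5 and Stmn2 was lower, at 86.8, 92.4, 104 and 44 CPM. The mouse death receptor Tnfrsf10b stood at 41.1, 53.1, 34.6 and 35.3 CPM in the same endothelial-like class and 52.8, 59, 23.9 and 54.3 CPM in ILC2-like cells. Tnfrsf22 and Tnfrsf23, decoy receptors for the same ligand, and their neighbour Tnfrsf26 lie side by side on chromosome 7 and are close in sequence, so that the counting may have split their reads unevenly. Tnfrsf22 had 16.7, 13.7, 18.6 and 16.3 CPM in endothelial-like cells and at most 1.25 CPM in fibroblast-like cells, the only other class with 10 UMIs. Tnfrsf23 had 7.95, 16.6, 20.0 and 17.2 CPM and Tnfrsf26 4.72, 14.5, 16 and 5.57 CPM in endothelial-like cells.

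Tnfsf12 (TWEAK) and Tnfsf13 (APRIL) are adjacent on chromosome 11 and share the annotated readthrough transcript Tnfsfm13 on the same strand, so their counts are uncertain against each other. Tnfsf12 was broad, with 186, 143, 165 and 117 CPM in fibroblast-like cells, 97.8, 141, 107 and 149 CPM in macrophage-like cells and 117, 83.7, 129 and 84.1 CPM in endothelial-like cells. TFC-like cells had 50.8, 42.1, 55.9 and 43.3 CPM, and free RNA 63.7, 50.3, 35.7 and 34.1 CPM. The ranges of the first 3 classes overlapped, and the TFC-like range lay below all of them. Its receptor Tnfrsf12a (Fn14) had its highest mean in nerve-like cells, at 79.3, 132, 45.5 and 225 CPM. Tnfsf13 had 57.2, 46, 80.5 and 50.2 CPM in endothelial-like and 52.3, 48.5, 45.3 and 46.4 CPM in macrophage-like cells, which overlapped. Tnfsf13b (BAFF), a survival factor of B cells, had 68.4, 11.5, 72.1 and 5.8 CPM in macrophage-like cells and 20.4, 10.2, 23.7 and 2.77 CPM in fibroblast-like cells. In both classes the libraries labelled day 5 and day 20 were above those labelled day 10 and day 30.

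The receptors of these B cell factors were found on B-like and myeloid cells. Tnfrsf13c (BAFF receptor) had 103, 130.5, 114 and 219 CPM in B-like cells, the only class with 10 UMIs. Tnfrsf13b (TACI) had 85.1, 111, 74 and 119.7 CPM in B-like cells, 44.3, 76.1, 99.3 and 77.9 CPM in monocyte-like cells and 38.7, 59.3, 46.2 and 76.9 CPM in macrophage-like cells, and these ranges overlapped. Tnfrsf17 (BCMA), known as a receptor of plasma cells, had 195 of its 202 UMIs in macrophage-like cells, at 13.9, 21.8, 14.8 and 29.7 CPM, and 0 in B-like cells. Its reads were concentrated in the Pf4 cluster, which had 44.5, 32.7, 42.9 and 47.2 CPM in the 4 libraries. Cd40 had 37.1, 76.6, 39.9 and 58.6 CPM in B-like cells, 22.9, 17.3, 30.5 and 23.9 CPM in macrophage-like cells and 23, 17.6, 34.7 and 18.7 CPM in TFC-like cells, and free RNA held 12.7, 7.62, 13.2 and 6.75 CPM. Its ligand Cd40lg was sparse, with 14.4, 9.52, 18.9 and 15.5 CPM in T-like cells.

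Tnfsf9, the ligand of Tnfrsf9, was highest in dendritic-like cells at 303, 129.6, 78.9 and 80.1 CPM. Macrophage-like cells had 53.8, 39.6, 46.2 and 18.1 CPM, fibroblast-like cells 43.7, 26.2, 45.4 and 36.1 CPM and nerve-like cells 62.3, 47.9, 45.5 and 38.7 CPM, and these 3 classes overlapped. Fasl, the ligand of the death receptor Fas, had 222 of its 288 UMIs in NK-like cells, at 186, 62.2, 68.5 and 31 CPM. Tnfsf14 (LIGHT) had 81.2, 29.8, 76.4 and 30.2 CPM in neutrophil-like and 26.4, 45.9, 79.6 and 32.6 CPM in ILC2-like cells. Tnfsf8 stayed at or under 17.8 CPM in the 4 classes with 10 UMIs, and Tnfsf18 had 25 UMIs in all. Eda, an ectodermal ligand, had 25.5, 31.1, 30.3 and 23.2 CPM in nerve-like cells and 14.6, 8, 8.88 and 5.55 CPM in fibroblast-like cells. Its receptors Eda2r and Edar had 118 and 38 UMIs, with Eda2r at 6.15, 11.5, 5.42 and 7.4 CPM in fibroblast-like cells and 34 of the Edar UMIs in TFC-like cells.

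**Figure D3:**
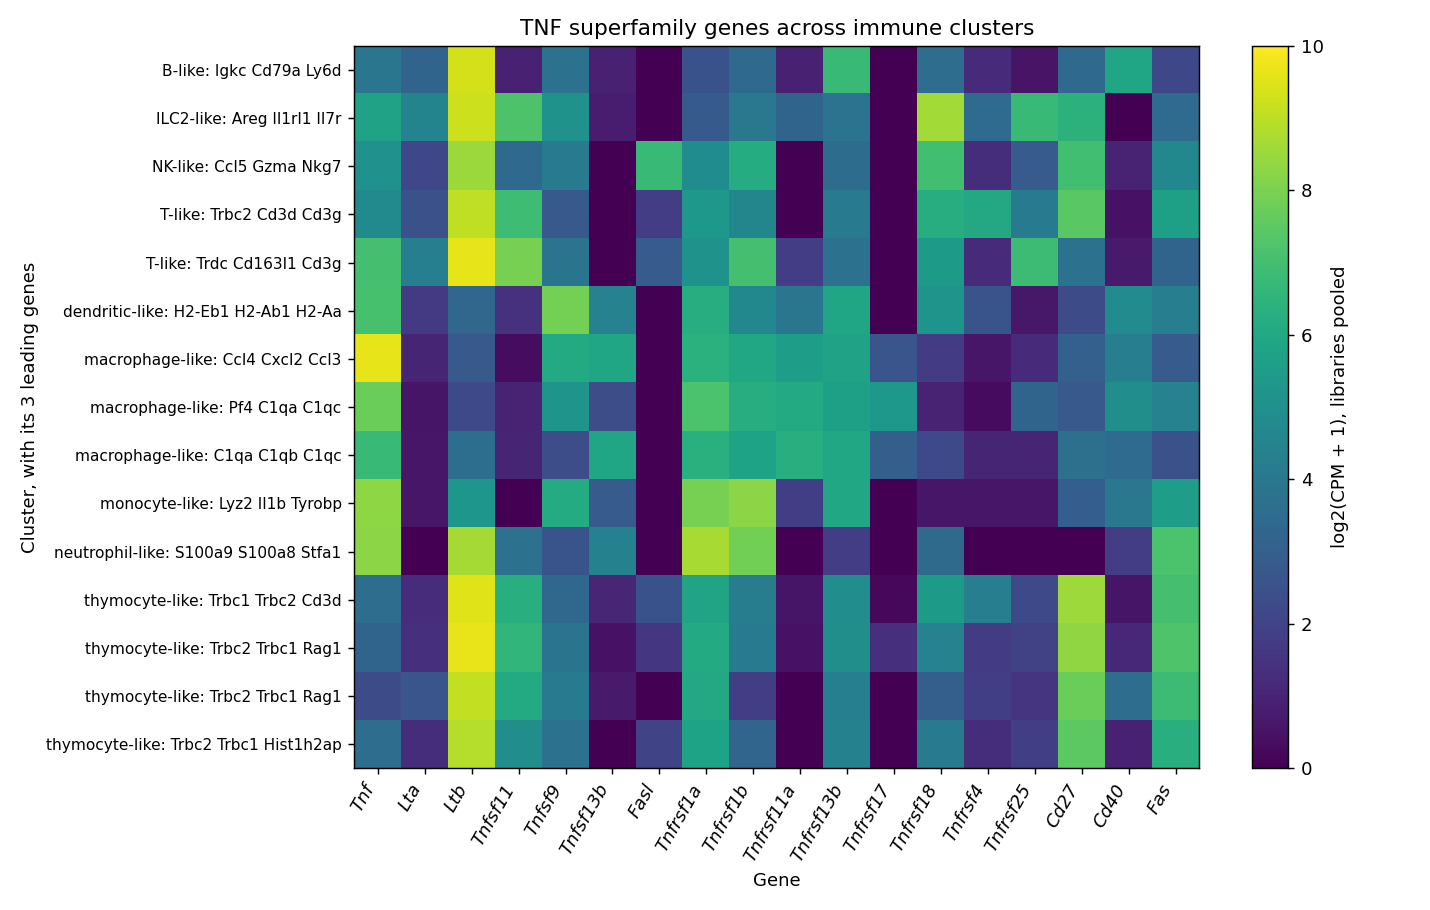
Level of 18 members (columns, log2 of CPM + 1 with libraries pooled) in the immune clusters (rows, named by class and 3 leading genes). Tnf was highest in the macrophage-like cluster led by Ccl4, Tnfrsf17 in the one led by Pf4, Tnfsf11 in the T-like cluster led by Trdc, Tnfrsf18 in ILC2-like cells and Fasl in NK-like cells.

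The receptors of Tnf differed in breadth. Tnfrsf1a, the receptor with a death domain, had 406, 368, 459 and 453 CPM in neutrophil-like, 220.4, 273, 284 and 266 CPM in monocyte-like, 189, 180.4, 214 and 216 CPM in endothelial-like and 159.6, 165, 156 and 172 CPM in fibroblast-like cells. The neutrophil-like range lay above those of the other 3 classes. TFC-like cells had 50.8, 61.3, 59.7 and 70.2 CPM, close to the 52.4, 65.1, 61.1 and 61.5 CPM of free RNA. Tnf, by contrast, lay far below free RNA in the same cells, as given above. The part of free RNA in the Tnfrsf1a level of TFC-like cells was not tested. Tnfrsf1b, the receptor without a death domain, had 248, 339, 341 and 374 CPM in monocyte-like cells and 252, 229, 178 and 242 CPM in neutrophil-like cells. Macrophage-like cells had 53.5, 70.1, 65.6 and 81.2 CPM and endothelial-like cells 24.4, 25.6, 31.3 and 21.8 CPM. TFC-like cells had 11 Tnfrsf1b UMIs, at 0.619, 3.06, 0 and 1.17 CPM, below the 5.17, 10.3, 9.78 and 9.38 CPM of free RNA in every library. Ltbr, the receptor of membrane lymphotoxin and of LIGHT, had 61, 72, 80.9 and 74 CPM in fibroblast-like, 53.9, 77.4, 70.5 and 85.9 CPM in endothelial-like and 30.5, 31.4, 28.9 and 43.3 CPM in TFC-like cells, and free RNA held 23.4, 28.6, 22.5 and 39.8 CPM. The fibroblast-like and endothelial-like ranges overlapped and lay above that of TFC-like cells.

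Tnfrsf9 (4-1BB), known as a costimulatory receptor of T cells, was highest in TFC-like cells in 3 of 4 libraries. It stood at 144, 57.5, 139 and 35.1 CPM there, from 1400, 75, 72 and 30 UMIs, and at 60.2, 31.1, 38.3 and 31 CPM in NK-like cells. T-like cells had 9.62, 7.61, 14.1 and 9.29 CPM, below TFC-like cells in each library. The libraries labelled day 5 and day 20 were the high ones in TFC-like cells, and those labelled day 10 and day 30 the low ones. Free RNA, with 46.2, 6.48, 45.9 and 8.25 CPM, was high and low in the same pairs of libraries and below TFC-like cells in each library. The share of TFC-like cells with at least 1 Tnfrsf9 UMI was 50.1, 16.5, 31.2 and 8.54%, at the unequal depths given above. Thinned to 1000 UMIs per cell, the shares were 13.7, 6.52, 14.3 and 3.61%. Fibroblast-like cells, at a median of 4144, 7193, 7099 and 7530 UMIs, had 0.729, 0.511, 0.669 and 0% before and 0.206, 0.173, 0.676 and 0% after thinning. The gene overlaps Camta1 on the opposite strand at chr4:150914562-150946102 (GENCODE, GRCm38), and the sources used here do not say whether strand was used in counting.

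**Figure D4:**
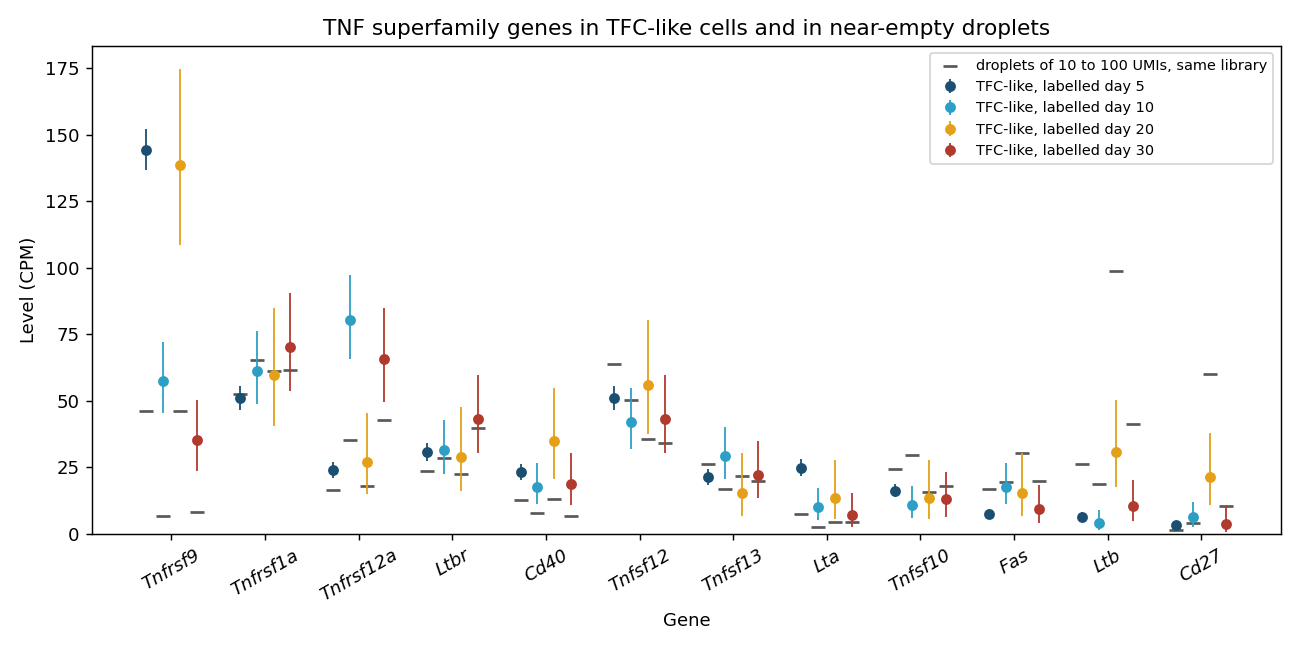
Level (CPM) of 12 members in TFC-like cells, with 1 point for each library and exact 95% Poisson intervals, and the same gene in droplets of 10 to 100 UMIs of the same library (grey dashes). Tnfrsf9 lay above the dashes in all 4 libraries, Tnfrsf1a lay near them, and Ltb lay below them.

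Most other costimulatory receptors were highest in lymphoid classes. Tnfrsf18 (GITR) had 410.1, 358, 346 and 499 CPM in ILC2-like cells, above the 152, 119, 105 and 82.6 CPM of NK-like cells. Tnfrsf25 (DR3) had 96.8, 114, 87.5 and 147 CPM in ILC2-like and 105, 49.5, 24.3 and 55.8 CPM in T-like cells. Tnfrsf4 (OX40) had 6.41, 3.81, 77.9 and 6.2 CPM in T-like cells, with the library labelled day 20 far above the other 3. The makeup of the T-like class differed between libraries, since the Trbc2 cluster was 23.7%, 58.2%, 84.7% and 67.2% of it. Within that cluster Tnfrsf4 stood at 24.3, 6.54, 91.1 and 9.31 CPM and Cd27 at 107, 108, 200.1 and 144 CPM. Cd27 had 67.9, 42.9, 341 and 269 CPM in thymocyte-like cells, 31.3, 64.7, 175 and 99.1 CPM in T-like cells and 98.1, 98.5, 160.2 and 134 CPM in NK-like cells. In these 3 classes Cd27 was higher in the libraries labelled day 20 and day 30 than in those labelled day 5 and day 10. Tnfrsf8 and Tnfrsf14, with 35 and 59 UMIs in all, reached 10 UMIs only in thymocyte-like and endothelial-like cells, respectively.

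The remaining receptors were highest in different classes. Fas had 146, 169, 306 and 75.5 CPM in neutrophil-like cells and 78.7, 69.2, 154 and 53.4 CPM in endothelial-like cells. The ranges overlapped, and both classes were highest in the library labelled day 20 and lowest in that labelled day 30. Tnfrsf21 (DR6) had 86.2, 86.6, 70.9 and 105 CPM in monocyte-like and 49, 67, 39 and 53.6 CPM in fibroblast-like cells, and these ranges did not overlap. Stromal-like cells had the second highest mean, 69.6 CPM (SD 29.0), and monocyte-like cells were the highest class in 3 of 4 libraries. Ngfr, the low-affinity neurotrophin receptor of glial cells, had 45.3, 67, 45.5 and 178 CPM in nerve-like cells. Tnfrsf19 had 19.8, 35.5, 19.7 and 37 CPM in fibroblast-like cells. In nerve-like cells both Ngfr and Tnfrsf12a were highest in the library labelled day 30, which held 19 of these cells.

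Levels were then compared between classes with the library as a block, which asks whether a class differs from another within the same 4 libraries. UMIs were summed for each class and library, and the p-values below come from edgeR's quasi-likelihood test with Benjamini-Hochberg adjustment over all genes tested. They measure how the difference between the classes varied over the 4 libraries, each of pooled mice. These libraries differ in labelled age and no age has a replicate, so change with age is part of that variation. The filter on low counts kept a gene that was present in either class. A member that passed through the class where it was high thus had to differ. The p-value of such a member is a description, as are the counts and medians of members. Fold changes are log2 values. Each SE is the size of the log2 fold change divided by the square root of the test's F statistic. It is approximate, and where a class holds few UMIs it can be smaller than the counting error.

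Macrophage-like cells had more Tnf, Tnfrsf13b, Tnfrsf1b and Tnfrsf11a than TFC-like cells, and less Tnfrsf9. Of 45 members, 17 passed the filter. Macrophage-like cells were higher for 10 of them, where 31.7% of all genes tested were higher, and lower for 2, where 29.1% of all genes were lower. The median log2 fold change of the 17 that passed was 1.46, and that of all genes 0.08. Tnf led (log2 fold change 10.11 ± 0.32 (SE), adjusted p = 5.26e-08) and was higher in 4 of 4 libraries. It passed the filter only through macrophage-like cells, since TFC-like cells held 8 Tnf UMIs in the library labelled day 5 and 0 in the other 3. Tnf thus had to differ, so that its p-value and the 4 of 4 libraries are a description. The size of its change is less certain than the SE of the fit. Without the upper limit of 10000 UMIs per cell, where TFC-like cells numbered 2975, 775, 406 and 735, its log2 fold change was 7.59. TFC-like cells held 0 Tnf UMIs without the library labelled day 5, so that Tnf was then at least 301-fold higher, with 3 UMIs over the remaining libraries taken as the floor. Without that library Tnfrsf11a rested on 1 UMI in TFC-like cells and was 196-fold (95% interval 35.1 to 7771) higher, and the log2 fold changes were 5.45 for Tnfrsf1b, 2.68 for Tnfsf9 and -2.24 for Tnfsf10. Tnfsf9 stood at 5.47 without the library labelled day 10. With doublets kept, Tnf stood at 9.46, Tnfrsf9 at -4.55 and Tnfrsf1b at 4.98, and the calls remained. Tnfrsf17 had 195 UMIs against 0 in TFC-like cells and was at least 80.8-fold higher, with 3 UMIs over the 4 libraries taken as the floor. Among receptors, Tnfrsf13b (6.41 ± 0.34), Tnfrsf1b (6.27 ± 0.36), Tnfrsf11a (5.37 ± 0.38), Tnfrsf21 (2.44 ± 0.39) and Tnfrsf1a (1.15 ± 0.14) were higher in macrophage-like cells. Among ligands, Tnfsf9 (4.28 ± 0.69), Tnfsf12 (1.66 ± 0.17) and Tnfsf13 (1.46 ± 0.20) were higher. Tnfrsf9 was lower (log2 fold change -5.93 ± 0.30 (SE), adjusted p = 3.38e-07). It passed the filter through TFC-like cells, so this p-value is a description. Tnfsf10 was lower as well (log2 fold change -1.63 ± 0.49 (SE), adjusted p = 0.0166), but not without the library labelled day 20 (-1.70, adjusted p = 0.0524) or with doublets kept (-1.29, adjusted p = 0.0515), and its 24.5, 29.7, 15.6 and 18 CPM in free RNA exceeded the 16.1, 10.7, 13.5 and 12.9 CPM of TFC-like cells. The log2 fold changes of Cd40 (0.36), Fas (0.34), Ltbr (0.24), Tnfrsf12a (-0.03) and Ltb (-0.09) did not pass the threshold.

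**Figure D5:**
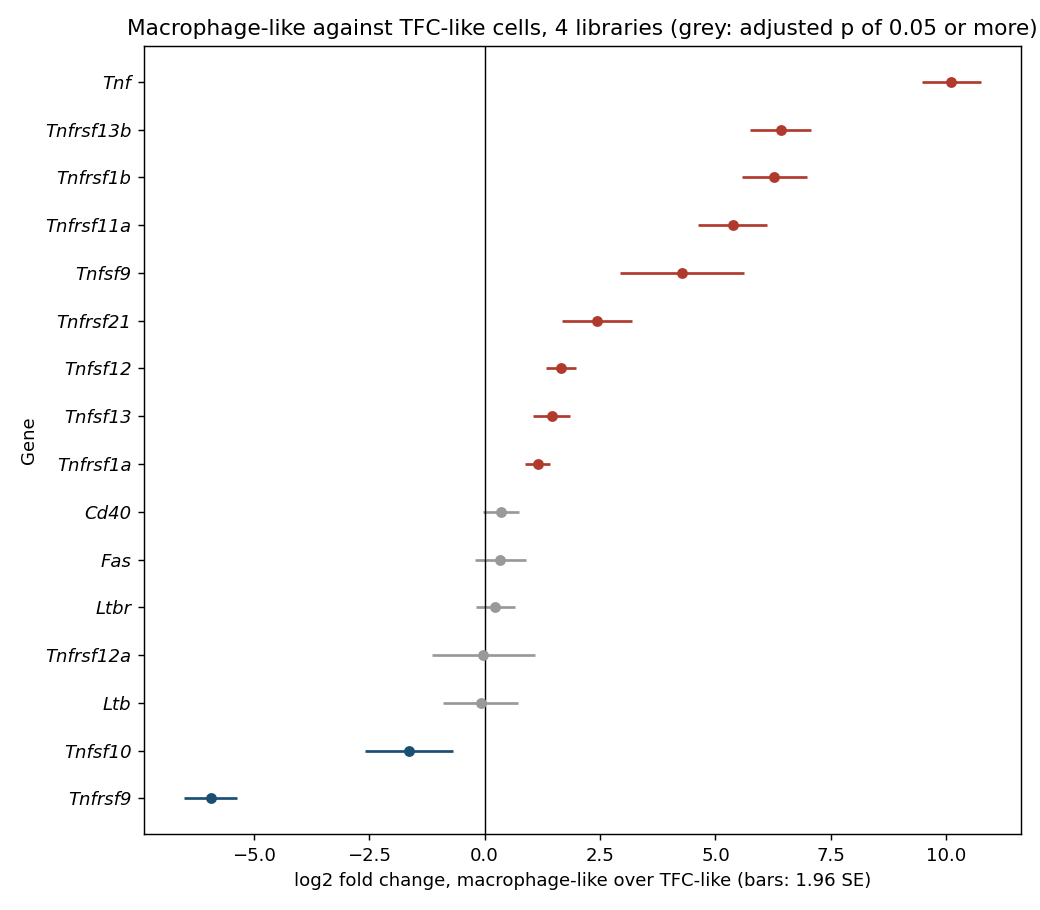
Log2 fold change of 16 members in macrophage-like over TFC-like cells (x axis), with grey points where the adjusted p was 0.05 or more. Bars were drawn from the approximate SE over 4 libraries and need not cover 95%. Tnf lay at 10.11 and Tnfrsf9 at -5.93, and Tnfrsf17 is left out because it had 0 UMIs in TFC-like cells.

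T-like cells had more Tnfsf11, Tnf, Tnfrsf1b, Ltb and Tnfrsf25 than TFC-like cells, and less Tnfrsf9. Of 19 members that passed the filter, 10 were higher (27.4% of all genes tested) and 6 lower (35.5% of all genes). The highest were Tnfsf11 (log2 fold change 8.88 ± 0.54 (SE), adjusted p = 4.22e-08), Tnf (7.41 ± 0.42), Tnfrsf1b (6.53 ± 0.61), Ltb (6.41 ± 0.47) and Tnfrsf25 (6.41 ± 0.44). TFC-like cells held 4 Tnfsf11 UMIs, so Tnfsf11 passed the filter only through T-like cells and its p-value is a description. The same holds for Tnf, by the TFC-like UMIs given above. Cd40lg, with 0 UMIs in TFC-like cells, was at least 65.9-fold higher by the same floor. Tnfrsf18 (4.77 ± 0.35), Tnfrsf13b (4.16 ± 0.55), Cd27 (3.61 ± 0.28) and Fas (1.43 ± 0.38) were higher too. Tnfrsf9 was lower in T-like cells (log2 fold change -3.14 ± 0.30 (SE), adjusted p = 1.55e-06). Tnfsf12 was lower (-5.33 ± 0.56). TFC-like cells exceeded T-like cells 86-fold (95% interval 15.3 to 3411) for Tnfsf13, 44.6-fold (95% interval 12.2 to 370.2) for Cd40 and 41.3-fold (95% interval 14 to 201) for Ltbr, each from 1 to 3 UMIs in T-like cells. Tnfrsf12a was lower (log2 fold change -1.22 ± 0.33 (SE), adjusted p = 0.0065), but not without the library labelled day 10 (-0.94, adjusted p = 0.0583).

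The T-like class held different cells in other settings. In the comparison above it was made of the clusters led by Trbc2 (521 cells) and Trdc (460 cells), and the cluster led by Ccl5, Gzma and Nkg7 was NK-like. Without the upper UMI limit the T-like class was only a cluster led by Ccl5, Gzma and Nkg7 (785 cells), while the clusters led by Trbc2 and Trdc were named thymocyte-like, so the UMI limit and the cells changed together. The log2 fold changes against TFC-like cells were then -1.02 for Tnfrsf9, -1.75 for Tnfsf13, -1.69 for Tnfsf12, 4.22 for Tnf, 5.78 for Tnfsf11 and 3.38 for Tnfrsf25. The value of Tnfsf13 lay outside the counting interval of the fold given above. Without integration of the libraries the T-like class held a Ccl5 cluster (781 cells) beside the Trbc2 and Trdc clusters, and Tnfrsf9 stood at -1.77, Tnfsf13 at -2.77 and Tnfsf12 at -2.67. With doublets kept, Tnfsf13 stood at -3.04, Tnfsf12 at -3.10, Cd40 at -3.85 and Ltbr at -3.73. When thymocyte-like cells were counted as T-like, a choice made after seeing the data, Tnfsf13 stood at -3.38, Tnfsf12 at -3.51, Cd40 at -3.43, Ltbr at -3.31, Tnfrsf25 at 5.43, Tnfsf11 at 8.04, Cd27 at 4.35 and Fas at 2.25, each still past the threshold.

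Leaving out a library left several of these members with few UMIs in the lower class, so that only a bound or a ratio of UMIs can be given. TFC-like cells held 0 Tnf UMIs without the library labelled day 5, and T-like cells were then at least 47.0-fold higher. T-like cells held 0 Tnfsf13 UMIs without that library and were at least 21.8-fold lower, and 0 Cd40 UMIs without the library labelled day 20 and were at least 15.4-fold lower. Without the library labelled day 5, Tnfsf11 was 141-fold (95% interval 48.1 to 689) higher and Tnfrsf18 62.3-fold (21.0 to 305) higher in T-like cells, from 3 UMIs each in TFC-like cells. Tnfsf12 was then 122-fold (21.4 to 4849) lower and Ltbr 93.6-fold (16.4 to 3736) lower from 1 UMI each in T-like cells, and Cd40 28.7-fold (7.58 to 243) lower from 2 UMIs. The fitted log2 fold change of Tnfrsf1b was 4.41 without the same library, and 7.38 when the one labelled day 10 was left out. When the library labelled day 20 was left out, Tnfsf12 stood at -4.41 and Ltb at 7.09, and Ltbr was 22.0-fold (7.48 to 107) lower from 3 UMIs. Tnfsf11 rested on 2 TFC-like UMIs without the library labelled day 30 and was 1004-fold (277 to 8306) higher.

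Endothelial-like cells had more Tnfsf10 and more of its receptors Tnfrsf10b, Tnfrsf22 and Tnfrsf23 than TFC-like cells. Of 15 members tested, 10 were higher than in TFC-like cells (34.1% of all genes) and 5 lower (31.4% of all genes). Tnfsf10 was higher (log2 fold change 3.95 ± 0.18 (SE), adjusted p = 1.63e-08), as were Tnfrsf10b (3.01 ± 0.22), Tnfrsf23 (2.20 ± 0.37) and Fas (2.85 ± 0.25). Tnfrsf22 exceeded its TFC-like level 100.2-fold (95% interval 27.5 to 831), from 2 UMIs in TFC-like cells. Tnfrsf1b (4.59 ± 0.41), Tnfrsf1a (1.67 ± 0.13), Ltbr (0.99 ± 0.14), Tnfsf13 (1.25 ± 0.22) and Tnfsf12 (1.04 ± 0.13) were higher. The lower members were Tnfrsf9 (log2 fold change -5.48 ± 0.23 (SE), adjusted p = 1.08e-08), Lta (-5.01 ± 0.42), Ltb (-1.76 ± 0.34), Tnfrsf12a (-1.26 ± 0.41) and Cd40 (-1.20 ± 0.22). The 6.19, 3.83, 30.8 and 10.5 CPM of Ltb in TFC-like cells lay below the 26.2, 18.7, 98.7 and 41.3 CPM of free RNA in every library. The part of free RNA in the Ltb call was not tested. Without the upper UMI limit, Tnfrsf9 had a log2 fold change of -3.92, Lta -3.25 and Ltb -0.91, and the endothelial-like class then held a cluster of 247 cells led by Tg and Flt1. Ltbr lost its call in 1 fit of all classes at a similar log2 fold change (0.98, adjusted p = 0.0537). Without the library labelled day 5, 3 members were lower, Tnfrsf12a stood at -2.15 and Tnfrsf1b at 3.59, and Tnfrsf22, with 0 UMIs left in TFC-like cells, was at least 13.8-fold higher. Tnfrsf22 stood at 5.63 without the upper UMI limit and at 4.73 with doublets kept, the latter below the interval of its fold given above. With doublets kept, Tnfrsf1b stood at 3.34 and Ltb at -0.90. Tnfrsf1b stood at 5.18 without the library labelled day 10, and Tnfrsf12a lost its call without the library labelled day 10 (-0.73, adjusted p = 0.103) or day 30 (-0.98, adjusted p = 0.0758).

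Fibroblast-like cells had more Tnfsf9, Tnfrsf21, Tnfrsf1b and Tnfrsf19 than TFC-like cells, and less Tnfrsf9. Of 14 members tested, 8 were higher than in TFC-like cells (31.0% of all genes) and 4 lower (29.8% of all genes). The higher members were Tnfsf9 (log2 fold change 3.84 ± 0.55 (SE), adjusted p = 6.74e-05), Tnfrsf21 (3.81 ± 0.28), Tnfrsf1b (3.50 ± 0.49), Tnfrsf19 (3.18 ± 0.33), Tnfsf12 (1.72 ± 0.14), Tnfrsf1a (1.48 ± 0.13), Ltbr (1.10 ± 0.16) and Fas (0.99 ± 0.22). TFC-like cells held 10 Tnfsf9 UMIs at labelled day 5 and 4 at labelled day 30. Tnfsf9 passed the filter only through fibroblast-like cells, so its p-value is a description. Tnfrsf9 (log2 fold change -6.13 ± 0.25 (SE), adjusted p = 1.08e-09), Lta (-5.66 ± 0.52), Cd40 (-4.05 ± 0.32) and Tnfsf10 (-2.25 ± 0.42) were lower. TFC-like Tnfsf10 was below free RNA in every library, as given above. Fas lost its call in 1 fit of all classes at a similar log2 fold change (0.98, adjusted p = 0.051). Without the library labelled day 5, Tnfsf9 stood at 2.39, Tnfrsf1b at 2.46 and Tnfrsf19 at 4.36, and without that labelled day 10, Tnfsf9 stood at 4.97 and Tnfrsf1b at 4.15. With doublets kept, Tnfrsf1b stood at 2.34 and Tnfrsf9 at -5.54. Tnfrsf9 was lower than in TFC-like cells in all 4 class comparisons, which share the TFC-like sums. It was picked for its high level in TFC-like cells and passed the filter through them, so its p-values in all 4 are a description.

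Macrophage-like cells had more Tnf, Tnfsf12 and Tnfsf13 than T-like cells, and less Tnfsf11 and Ltb. Of 20 members tested, 12 were higher in macrophage-like cells (27.8% of all genes) and 7 lower (22.8% of all genes). Tnf (log2 fold change 2.30 ± 0.43 (SE), adjusted p = 0.00088), Tnfsf12 (6.69 ± 0.47) and Tnfsf9 (2.23 ± 0.32) were higher. Tnfsf13 was 194-fold (95% interval 34.6 to 7665) higher, and Tnfrsf17, with 0 UMIs in T-like cells, at least 25.7-fold. Among receptors, Tnfrsf11a (5.65 ± 0.39), Tnfrsf13b (1.87 ± 0.24), Tnfrsf21 (1.82 ± 0.48), Tnfrsf1a (1.64 ± 0.28) and Tnfrsf12a (1.47 ± 0.32) were higher, with Cd40 at 42.4-fold (95% interval 11.6 to 352) and Ltbr at 41.8-fold (95% interval 14.2 to 204). Tnfsf11 (log2 fold change -7.72 ± 0.47 (SE), adjusted p = 1.11e-07), Ltb (-6.76 ± 0.50), Tnfrsf18 (-4.55 ± 0.41), Tnfrsf25 (-3.95 ± 0.43), Cd27 (-3.23 ± 0.32) and Fas (-1.42 ± 0.40) were lower, and Cd40lg was 79.5-fold (95% interval 21.1 to 671) higher in T-like cells. Macrophage-like cells held 7 Tnfsf11 UMIs, so Tnfsf11 passed the filter only through T-like cells and its p-value is a description. When thymocyte-like cells were counted as T-like, a choice made after seeing the data, Tnfrsf25 lost its call (-2.39, adjusted p = 0.0589), and Fas lost its call without the library labelled day 10 (-1.23, adjusted p = 0.0643) or day 30 (-1.17, adjusted p = 0.0503). The log2 fold change of Tnfrsf1b was 0.32 and did not pass the threshold. Without the upper UMI limit, with the Ccl5 cluster as the T-like class, Tnfsf13 stood at 3.38 on the log2 scale, below the counting interval of its fold, Tnfsf12 at 3.32, Tnfsf11 at -5.33, Tnfrsf21 at 3.76 and Tnf at 3.36, and Tnfrsf11a, with 0 UMIs in that T-like class, was at least 75.0-fold higher. With thymocyte-like cells counted as T-like, Tnfsf13 stood at 4.97, Tnfsf12 at 5.22, Cd40 at 3.81, Ltbr at 3.55, Tnfrsf21 at 2.81 and Tnf at 3.69. Tnfsf13 stood at 4.53 without integration and at 4.48 with doublets kept, both below the counting interval of its fold, and Tnfsf12 at 4.44 and 4.53. With doublets kept, Cd40 stood at 4.17 and Ltbr at 3.99. T-like cells held 0 Tnfsf13 UMIs without the library labelled day 5, and macrophage-like cells were then at least 42.8-fold higher. Macrophage-like cells held 0 Cd40lg UMIs without that library and were at least 37.4-fold lower. Tnfsf12 was then 370-fold (95% interval 66.2 to 14612) higher and Ltbr 89.8-fold (16.0 to 3562) higher from 1 UMI each in T-like cells, and Tnfsf11 533-fold (147 to 4413) lower from 2 UMIs in macrophage-like cells. The fitted log2 fold changes of Tnfrsf18, Tnfrsf25 and Tnfrsf21 were -5.51, -3.18 and 2.48 without the same library. When the library labelled day 20 was left out, 0 Cd40 UMIs remained in T-like cells and macrophage-like cells were at least 14.2-fold higher. Ltbr was then 21.9-fold (7.41 to 107) higher from 3 T-like UMIs and Tnfsf13 104-fold (18.5 to 4113) from 1, and Tnfsf12 stood at 5.95 and Tnfrsf21 at 1.22. Without that labelled day 10, Tnfsf11 stood at -6.87 and Ltb at -6.17.

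A list of 27 signalling genes was followed in the same comparisons, and all 27 were tested in each. It held mainly adaptors, NF-κB genes and feedback inhibitors downstream of these receptors, and also Adam17, which is not downstream of them. Against TFC-like cells, macrophage-like cells were higher for 12 (44.4%, against 31.7% of all genes tested) and lower for 1 (3.7%, against 29.1%). The largest were Tnfaip3 (3.35), a feedback inhibitor of NF-κB, the ligand-shedding protease Adam17 (2.47) and the subunit Nfkb1 (2.22), and Traf4 (-2.79) was the lower one. T-like cells were higher for 11 (40.7%, against 27.4%), led by Tnfaip3 (4.18), Nfkb1 (2.94) and the kinase Map3k14 (2.72), and lower for Ikbkg (-1.03), where 35.5% of all genes were lower. Endothelial-like cells were higher for 10 (37.0%, near the 34.1% of all genes), led by Adam17 (2.11), Map3k14 (1.61) and Nfkb1 (1.47), and lower for 5 (18.5%, against 31.4%), among them the adaptor Traf1 (-2.08), the subunit Relb (-1.02) and Traf4 (-0.81). Fibroblast-like cells were higher for 5 (18.5%, against 31.0%), led by Adam17 (1.82), the kinase Ripk1 (0.99) and Nfkb1 (0.82), and lower for 8 (29.6%, near the 29.8% of all genes), led by Traf1 (-3.78), Relb (-1.77) and the inhibitor Nfkbia (-1.49). Macrophage-like cells exceeded T-like cells for 7 (25.9%, near the 27.8% of all genes), led by Adam17 (1.78), Birc3 (1.00) and Cflar (0.98), and were lower for 8 (29.6%, against 22.8%), led by Traf4 (-4.51), Birc2 (-2.10) and Cyld (-1.54). The median log2 fold changes of the list were 0.39, 0.55, 0.10, -0.20 and 0.07 in these 5 comparisons, against 0.08, -0.15, 0.07, 0.04 and 0.05 over all genes. Traf1 and Relb were therefore higher in TFC-like than in endothelial-like and fibroblast-like cells.

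The libraries at the ends of the labelled age range were compared last. A member counted as different when it had at least 10 UMIs in the 2 libraries together and its ratio, with a pseudocount of 0.5 UMIs, was at least 2-fold with a counting interval that excluded no change. With 1 library for each age these are differences between libraries, not a test of age.

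In TFC-like cells, 3 of 22 members tested were higher in the library labelled day 30 than in that labelled day 5 (4.33% of all genes) and 2 were lower (3.37% of all genes). Tnfrsf9 stood at 35.1 CPM against 144 CPM at labelled day 5 (log2 ratio -2.02, interval -2.61 to -1.52) and Lta at 7.02 against 24.9 CPM (log2 ratio -1.71, interval -3.29 to -0.68). Tnfrsf12a stood at 23.8, 80.5, 27 and 65.5 CPM (log2 ratio 1.47, interval 1.01 to 1.89), and free RNA followed it with 16.5, 35, 18.1 and 42.8 CPM. Tnfsf9 (log2 ratio 2.28) and Tnfrsf23 (1.92) were higher from 10, 13, 0 and 4 and 16, 5, 0 and 5 UMIs. Tnfsf9 stood at 1.03, 9.96, 0 and 4.68 CPM against 4.48, 9.14, 10.3 and 7.5 CPM in free RNA, so that it lay below free RNA in both libraries compared. Tnfrsf23 stood at 1.65, 3.83, 0 and 5.85 CPM against 1.03, 3.05, 2.44 and 2.25 CPM in free RNA. TFC-like cells had a median of 1561 UMIs at labelled day 30 and 6628 at labelled day 5. These depths hold under the upper UMI limit, which removed a larger part of the class's UMIs at labelled day 30. With the limit, Tnfrsf9 had 30 UMIs at labelled day 30 and 1400 at labelled day 5. Without it, Tnfrsf9 had 600 UMIs (38.3 CPM) and 3828 UMIs (131 CPM), from cells clustered anew. The part of depth and of this selection in these ratios was not tested. Across 5 other settings Tnfrsf9 stayed between -2.29 and -1.71, Tnfrsf12a between 1.25 and 1.78 and Lta between -1.84 and -0.89, while Tnfsf9 ranged from 0.90 to 3.05 and Tnfrsf23 from -0.58 to 2.03. Lta and Tnfsf9 lost their calls without the upper UMI limit. Tnfsf9 kept its call in 3 of the 5 settings and Tnfrsf23 in 2. For Tnfrsf9, the library labelled day 20 was close to that labelled day 5. For Tnfrsf12a, the library labelled day 10 was above both ends.

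In macrophage-like cells, 3 of 21 members tested were higher in the library labelled day 30 (10.8% of all genes) and 5 lower (6.19% of all genes). Tnf was lower (log2 ratio -1.66, interval -1.86 to -1.47), and its log2 ratio lay between -1.66 and -1.07 across 5 other settings. Tnfsf13b (log2 ratio -3.47, interval -4.79 to -2.56), Tnfrsf12a (log2 ratio -2.31, interval -3.30 to -1.54) and Tnfsf9 (log2 ratio -1.55, interval -2.24 to -0.96) were lower, and Tnfsf10 had 20 UMIs at labelled day 5 and 0 at labelled day 30. Tnfrsf17 (1.10), Tnfrsf21 (1.47) and Tnfrsf25 (1.86) were higher. Tnfrsf25 rested on 8 UMIs at labelled day 30 and 5 at labelled day 5 (interval 0.11 to 3.87). Tnfrsf17 kept its call in 3 of the 5 settings, with 0.48 when cells had at most 5% mitochondrial UMIs and 0.72 without the upper UMI limit. Without that limit Tnfrsf25 (1.17) and Tnfsf9 (-0.93) also lost theirs. Within each macrophage-like cluster Tnf was also lower in the library labelled day 30 than in that labelled day 5, by the cluster values given above. Summed levels of markers of other classes also differed between the libraries in macrophage-like cells. The summed level of the 7 dendritic markers in macrophage-like cells was 12929, 803, 9035 and 170.5 CPM, that of the neutrophil markers 1666, 187, 852 and 61.7 CPM, and that of the 6 macrophage markers 20923, 21646, 20459 and 20637 CPM. The TFC-like markers summed to 1522, 442, 583 and 327 CPM and the endothelial-like markers to 147, 49.5, 22.2 and 29.0 CPM. The LEC-like (219, 645, 423 and 477 CPM) and fibroblast-like markers (49.5, 195, 54.5 and 168 CPM) were higher at labelled day 30 than at labelled day 5. Whether these sums reflect other cells in the class or the state of its cells was not tested. Their part in the differences was not tested either.

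Endothelial-like cells had 2 of 25 members tested higher (6.59% of all genes) and 3 lower (4.08% of all genes) in the library labelled day 30. Tnfrsf11b (2.49) and Tnfrsf23 (1.12) were higher on the log2 scale. Tnfsf9 (log2 ratio -3.00, interval -8.90 to -1.05) and Tnfrsf9 (log2 ratio -2.53, interval -8.43 to -0.55) were lower, each with 1 UMI in the library labelled day 30, as was Tnfrsf25 (-1.31). Tnfrsf11b rested on 5 UMIs in each library and kept its call in 4 of 5 other settings, and Tnfrsf25 kept its call in 3. In fibroblast-like cells 3 of 25 were higher (7.09% of all genes) and 2 lower (4.2% of all genes). Tnfrsf11b (log2 ratio 3.33, interval 2.15 to 4.64), Ngfr (2.41) and Tnfrsf4 (2.59) were higher, and Tnfsf13b (log2 ratio -2.66, interval -5.18 to -1.30) and Eda (-1.29) were lower. Tnfrsf4 rested on 5 UMIs in each library and kept its call in 3 of 5 other settings, with 0.05 without the upper UMI limit, where Eda (-0.74) also lost its call. The abundant endothelial-like members Tnfsf10 and Tnfrsf1a had log2 ratios of 0.01 and 0.19.

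Several members separated the libraries in pairs rather than along the labelled ages. Tnfrsf9 in TFC-like cells and Tnfsf13b in macrophage-like and fibroblast-like cells were high in the libraries labelled day 5 and day 20 and low in those labelled day 10 and day 30. Tnfrsf12a in TFC-like cells and Tnfrsf19 in fibroblast-like cells had the opposite order, as did H19 and Igf2. If the labels day 5 and day 30 were exchanged, these pairs would be the older and the younger libraries, and this was not tested. The dendritic markers in macrophage-like cells had the order of Tnfsf13b. The library labelled day 20 stood apart for the lymphoid members Cd27 and Ltb in other classes. Cd27 was at 5.26, 7.03, 23.1 and 2.9 CPM in macrophage-like and 3.4, 6.13, 21.2 and 3.51 CPM in TFC-like cells, and Ltb at 6.19, 3.83, 30.8 and 10.5 CPM in TFC-like cells. Free RNA held 1.38, 3.81, 60.1 and 10.5 CPM of Cd27 and 26.2, 18.7, 98.7 and 41.3 CPM of Ltb, and 3158 of the 5076 cells of that library were thymocyte-like. Both genes were below free RNA in the TFC-like, macrophage-like, endothelial-like and fibroblast-like cells of that library.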

How the data were processed

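The authors mapped Chromium 3' reads on mm10 with CellRanger and deposited the raw UMI counts of all genes in all droplets, unfiltered and not normalized. From a second deposited count table of the whole series only the list of 37503 cell barcodes was used. Barcodes were placed in the library that gave them the most UMIs. The submitters' processing notes name Seurat 3.1.4 for the later steps of the study, whose output was not used here.

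Cells had 200 to 10000 UMIs, at most 10% mitochondrial and at most 5% hemoglobin UMIs, and the 6% with the highest Scrublet scores in each library (scanpy 1.11.5, expected rate 0.06) were removed as doublets. Libraries were normalized by SCTransform (sctransform 0.4.2) and joined by canonical correlation (Seurat 5.3.0) on 3000 features, which excluded the members and the signalling list, and clustered on 30 principal components at resolution 0.9. Clusters were named from marker lists, so class names may differ from those of the study. Members, lists and classes were chosen with earlier results of these data known. Any member could be named, and of the signalling list at most 3 genes in each direction of a comparison, those with the largest fold change.

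UMIs were summed per class and library. Classes were compared with edgeR 4.0.16 (TMM, filterByExpr, quasi-likelihood test, library as block, threshold 0.05) in R 4.3.3. The block rests on both classes coming from the same library. On simulated counts for macrophage-like against TFC-like cells (9212 genes, 200 changed), 45% of 2-fold and 90% of 4-fold changes were recovered with 4 false calls. The simulation had the same dispersion for all genes, no differences between libraries other than depth, and few changed genes. These rates may therefore not hold for the data. Intervals are exact Poisson or Clopper-Pearson intervals (scipy 1.17.1, Python 3.11.15), thinning drew 1000 UMIs per cell, and shallower cells were left out. The floor for a count of 0 is 3 UMIs. Alternatives were DESeq2 1.42.0, no filter, no block, 1 fit of all classes, other cell filters, no integration, each library left out and, added after seeing the data, T-like with thymocyte-like cells. Spatial, imaging and zebrafish data were not analysed here.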

Additional observations from a re-analysis of the deposited data

Results flagged for a closer look

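For 3 members the library labelled day 30 differed from that labelled day 5 in opposite directions in different classes, beyond counting error in each. Tnfrsf12a had a log2 ratio of 1.47 in TFC-like cells and -2.31 in macrophage-like cells. Tnfsf9 had 2.28 in TFC-like cells, -1.55 in macrophage-like cells and -3.00 in endothelial-like cells. Tnfrsf25 had 1.86 in macrophage-like cells and -1.31 in endothelial-like cells. The macrophage-like value of Tnfrsf25 rested on 8 UMIs at labelled day 30 and 5 at labelled day 5, with an interval of 0.11 to 3.87. The TFC-like value of Tnfsf9 rested on 4 and 10 UMIs in these libraries, with an interval of 0.05 to 3.97. In 5 other settings Tnfsf9 kept its call in 3 in TFC-like cells, where it stood at 0.90 without the upper UMI limit, and in 4 in macrophage-like cells, where it stood at -0.93 without that limit. Tnfrsf25 kept its call in 4 settings in macrophage-like and in 3 in endothelial-like cells, and Tnfrsf12a kept both calls in all 5. Each value compares 1 library with 1 library, and the differences between the classes were not tested.

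The 199 cells left unnamed, in a cluster led by Gm26917, Satb1 and Arpp21 with a median of 625 UMIs, belong to no comparison but held members above the level of free RNA pooled over the libraries. Ltb stood at 384 CPM, Cd27 at 221 CPM, Tnf at 183 CPM and Fas at 94.5 CPM, against 42.7, 16.1, 15.7 and 21.0 CPM in free RNA. The pooled level takes no account of which libraries the unnamed cells came from. At labelled day 20, free RNA alone held 98.7 CPM of Ltb and 60.1 CPM of Cd27. Tnfrsf13b, Tnfsf11 and Tnfsf9 each stood at 44.1 CPM from 7 UMIs, and Tnfrsf21 at 25.2 CPM from 4 UMIs, against 4.20, 4.39, 7.62 and 6.25 CPM.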

How the results depend on the processing

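Of the 970 gene-level values recomputed, 960 kept their direction and side of the threshold, 10 lost the call and 0 reversed. A call whose gene was not tested in a setting is not among the 970. With DESeq2 74 calls were recomputed, but with at most 5% mitochondrial UMIs 64 and without the library labelled day 5 69. Of 175 counts and shares, 143 stayed within 1.5 times or the counting interval. Against TFC-like cells, the members higher in macrophage-like cells rose from 10 to 16 with no filter and to 16 with no upper UMI limit, and those lower from 2 to 4 with DESeq2, 6 with no filter, 5 in 1 fit of all classes and 4 with no upper limit, or fell to 1 with at most 5% mitochondrial UMIs and 1 with doublets kept. The members higher in T-like cells rose from 10 to 16 with no filter. Those lower in endothelial-like cells went from 5 to 3 with at most 5% mitochondrial UMIs and to 8 with no upper limit. In fibroblast-like cells those higher rose from 8 to 13 with no filter, and those lower went from 4 to 8 with no filter, 8 with no upper limit and 2 with at most 5% mitochondrial UMIs. The members lower in macrophage-like than T-like cells rose from 7 to 14 with DESeq2, 15 with no filter and 11 in 1 fit. More genes are tested with no filter; otherwise the cause was not tested. Leaving out 1 library at a time gave 3 to 5 members lower in endothelial-like cells, the lowest count without the library labelled day 5. Without the library block all 10 counts of members, 10 and 2 for macrophage-like against TFC-like cells, were the same.

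For labelled day 30 against day 5, the 5 TFC-like members past 2-fold became 3 at a minimum of 30 UMIs and 3 with at most 5% mitochondrial UMIs. Other pairs of libraries gave 2 (day 20 and day 5) and 1 (day 30 and day 10) in TFC-like cells, 3 and 2 of 8 in macrophage-like cells and 2 (day 20 and day 5) in fibroblast-like cells. In endothelial-like cells 5 became 3 (day 30 and day 10) and 3 with at most 5% mitochondrial UMIs. The 5 fibroblast-like members became 3 at 30 UMIs, 10 with no upper limit and 8 with doublets kept. The myeloid share of Tnf UMIs was 87.7% with doublets kept. Depth limits members with few UMIs, and 1 library per age limits every difference between libraries.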
